A study of Mus musculus with 42 samples.

Results

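A set of 10 genes of transforming growth factor beta (TGF-beta) superfamily signalling were followed in RNA recovered with Tnrc6a from mouse embryonic stem (ES) cells. They were the rows of both deposited count tables with the symbols Tgfbr1, Acvr1b, Acvr1, Bmpr1a, Tgfbr2, Acvr2a, Acvr2b, Bmpr2, Smad2 and Smad7, that is 10 of 18825 genes in experiment 1 and 10 of 19866 in experiment 2. All 10 passed the filter on low counts in both experiments. They were chosen with earlier results of these data known, so counts among them describe this list and do not test the family. With the tagged protein, 9 of the 10 mRNAs were enriched in experiment 1, where 28.1% of all genes tested were, and 8 in experiment 2, where 18.9% were, with Tgfbr2, Tgfbr1 and Smad2 among the 4 most enriched both times. In cells labelled Ago2KO the enrichment of Smad2 and Tgfbr1 was lower, where 3.77% of all genes tested were. In cells labelled Trim71KO that of Bmpr2 and Smad7 was lower in experiment 1, where 3.47% were, and neither was called in experiment 2. A test of the difference itself did not show these changes to differ between experiments. Of these knockout calls only that of Smad2 held in every alternative and without any 1 library.

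The cells were 129S6/SvEvTac mouse ES cells on gelatin in medium with serum and LIF. All groups carried the yGlob reporter GFP_5xT71BS, and all cells are described as stably transfected with FLAG-Cas9::T2A::Blasticidin. Untagged cells carried nothing further, tagged cells carried HA-AVI-Tnrc6a, and the other groups carried HA-AVI-Tnrc6a with Trim71-/- (Trim71KO, both experiments) or with Ago2-/- (Ago2KO, experiment 2). RNA bound to anti-HA beads (IP) and RNA of the lysate (input) were sequenced from 3 cultures per group, giving 42 libraries in 14 groups. The labels do not say whether a line is 1 clone or several, so p-values measure the spread between these cultures. A lower level in such bulk RNA cannot be told apart as fewer cells of a type or less RNA per cell.

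Tnrc6a belongs to the GW182 family, scaffold proteins that Argonaute proteins bring to mRNAs matched by a microRNA, where they recruit the machinery that removes the poly(A) tail. Trim71 binds hairpins in mRNAs of pluripotent cells, and Ago2 is the Argonaute protein able to cut its target. In TGF-beta superfamily signalling a ligand joins a type II receptor kinase to a type I receptor kinase, which then phosphorylates a receptor-regulated Smad. Tgfbr1 and Tgfbr2 bind TGF-beta itself, Acvr1b with Acvr2a or Acvr2b serves activin and Nodal, and Acvr1 and Bmpr1a with Bmpr2 serve bone morphogenetic proteins (BMPs). Smad2 carries the TGF-beta, activin and Nodal signal to the nucleus, whereas Smad7 is an inhibitory Smad that acts on the receptors and is itself induced by the pathway. In mouse ES cells Nodal and BMP signals are both active.

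The Argonaute proteins of mouse ES cells carry mainly microRNAs of the mir-290 cluster and, on the way to the primed state, of the mir-302 cluster. Tgfbr2 is among the reported targets of this seed family, and the shared seed is shown for that reason. Of the 11 3′ arms of both clusters found in the RefSeq list used (GRCm38.p6), 5 share 1 seed. The 3′ arms of some cluster members were not in that list, so further arms may share the seed. The 5 are printed 5′ to 3′ with the seed, bases 2 to 8, in capitals, and target sites in the 10 mRNAs were not analysed here.
mmu-miR-291a-3p: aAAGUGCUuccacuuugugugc
mmu-miR-294-3p: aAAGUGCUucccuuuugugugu
mmu-miR-295-3p: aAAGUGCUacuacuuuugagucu
mmu-miR-302b-3p: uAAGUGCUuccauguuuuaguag
mmu-miR-302d-3p: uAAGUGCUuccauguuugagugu
The first 3 lie on the plus strand of chromosome 7 of GRCm38.p6, at chr7:3218968-3218989, chr7:3220691-3220712 and chr7:3220815-3220837. The mir-302 arms printed here lie on the plus strand of chromosome 3, at chr3:127545275-127545297 and chr3:127545665-127545687. Levels of the microRNAs themselves were not analysed here.

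In the same build Tgfbr1 (ENSMUSG00000007613) lies at chr4:47353222-47414926, Tgfbr2 (ENSMUSG00000032440) at chr9:116087695-116175363 and Bmpr2 (ENSMUSG00000067336) at chr1:59764279-59878081. Smad2 (ENSMUSG00000024563) and Smad7 (ENSMUSG00000025880) both lie on chromosome 18.

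Libraries held 12587257 to 23657840 counts in experiment 1 and 16296447 to 21026552 in experiment 2. Levels are CPM, counts scaled to a common TMM-adjusted library size, and the enrichment of a gene is its IP to input ratio in a genotype relative to that in another, on the log2 scale, with the standard error (SE) of the fit. A gene is called at an adjusted p under 0.05 over all genes tested. Tnrc6a mRNA stood 294-fold over input in tagged cells of experiment 1 and 206-fold in experiment 2, against 0.907-fold and 0.863-fold in untagged cells. Ago2 input RNA fell from 353 to 162 CPM in the libraries labelled Ago2KO. Trim71 input RNA gave no lower level where the label is Trim71KO (282 against 241 CPM in experiment 1 and 377 against 282 in experiment 2), so its level does not check that label. All 8 ES cell markers examined were present, at a summed 5600 to 8680 CPM in every library. Only 2 of 6 fibroblast markers and 2 of 5 trophectoderm markers were in the tables.

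In input RNA, Smad7 and Acvr1b were the most abundant of the 10 genes per length and Tgfbr2 the least. In tagged cells of experiment 2, Smad7 stood at 23.9 ± 1.08 CPM per kilobase (SD, n = 3), Acvr1b at 17.3 ± 0.36 and Bmpr1a at 11.9 ± 1.16. Smad2 (7.33 ± 0.25), Acvr2b (6.84 ± 0.51) and Tgfbr1 (5.88 ± 0.43) followed, of which Smad2 and Acvr2b overlapped between libraries. Acvr1 (2.39 ± 0.25), Acvr2a (2.30 ± 0.29) and Bmpr2 (1.96 ± 0.19) came next, and in each neighbouring pair of these the libraries overlapped. Tgfbr2 lay apart at 0.288 ± 0.077 CPM per kilobase, 82.8-fold below Smad7, and 31 to 58 counts per library stood behind that value. Smad7 was first and Tgfbr2 last in all 7 input groups of both experiments, with a span of 74.9-fold to 140-fold between them. The type II receptor for TGF-beta was thus the scarcest of these mRNAs, while the type I receptors Acvr1b and Bmpr1a were the most abundant receptors.

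**Figure D1:**
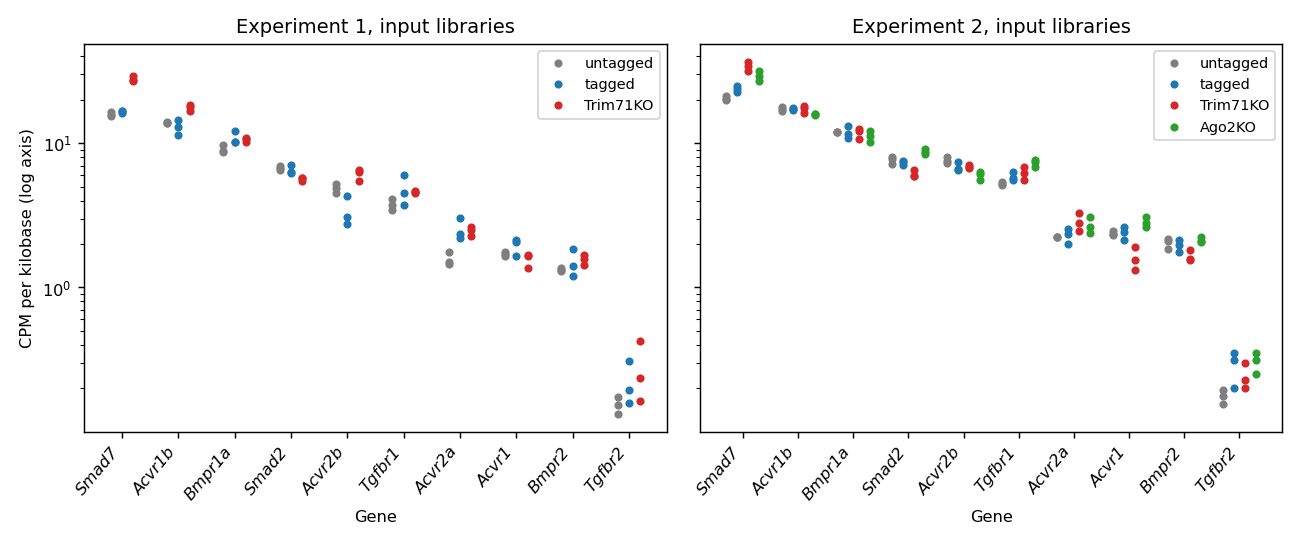
Input level of each gene in CPM per kilobase of gene length (log axis) in every input library of experiment 1 (left) and experiment 2 (right), coloured by genotype. Smad7 is highest and Tgfbr2 lowest in all 7 groups, and the order of the genes between them is nearly the same in both experiments.

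Recovery with the tag was read by setting the IP to input ratio of tagged against untagged cells. Because the genes were chosen with earlier results of these data known, the counts below describe the list and are no test of it. In experiment 1, 9 of the 10 genes were enriched and 0 depleted, where 56.9% of all 18772 genes were called, 28.1% as higher. The median over the 10 was 1.16, against -0.10 over all genes. In experiment 2, 8 were enriched and 0 depleted, where 27.7% of 19778 genes were called, 18.9% as higher, with a median of 0.70 against -0.03. In both experiments 9 of the 10 genes, all but Acvr2a, were higher in each tagged IP library than in any untagged one. The share of all genes that did so was not counted. The 28.1% and 18.9% called higher rest on the ratio to input and are not that share. With library size alone as the scale, the median of all genes in experiment 2 moved to -0.24 and 5 genes remained enriched (Tgfbr1, Acvr1b, Tgfbr2, Smad2 and Smad7).

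Among the type I receptors, Tgfbr1 was enriched most. In experiment 1 its IP level was 15.8, 16.1 and 16.97 CPM in untagged cells and 147, 152 and 159.5 CPM in tagged cells, while input stood at 22.4 to 27.0 and 24.3 to 39.6 CPM. The groups of IP libraries lay far apart and those of input libraries overlapped. The enrichment was 2.89 (SE 0.26, edgeR adjusted p 1.4e-09). In experiment 2 Tgfbr1 IP levels were 34.9, 31.6 and 29.3 CPM without the tag and 98.1, 92.1 and 100.3 CPM with it, an enrichment of 1.44 (SE 0.15, edgeR adjusted p 8.4e-09). Acvr1b, the activin and Nodal type I receptor, rose from 42.1 to 43.4 CPM in untagged IP to 131 to 158 CPM in tagged IP of experiment 1 (1.84, SE 0.14, edgeR adjusted p 7.82e-11). In experiment 2 the ranges were 64.1 to 75.4 and 117 to 122 CPM (0.80, SE 0.12, edgeR adjusted p 4.99e-06).

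The BMP type I receptors were enriched less. For Acvr1 the enrichment was 0.95 (SE 0.19, edgeR adjusted p 0.000149) in experiment 1. It was 0.60 (SE 0.19, edgeR adjusted p 0.0197) in experiment 2. The second call was lost with library size alone and without tagged input replicate 2 or untagged IP replicate 3, with values of 0.39, 0.52 and 0.45. Bmpr1a, which ES cells hold at high level, rose by 0.66 (SE 0.17, edgeR adjusted p 0.0024) in experiment 1. In experiment 2 it was not called (0.15, SE 0.11, edgeR adjusted p 0.344), although its tagged IP libraries (73.6, 77.7 and 78.9 CPM) lay just above the untagged ones (70.1, 72.01 and 67.1 CPM).

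Tgfbr2, the type II receptor for TGF-beta, had the largest value of the 10 genes in experiment 1. Its counts were 17, 11 and 12 in untagged IP libraries and 319, 249 and 263 in tagged IP libraries, or 1.26, 0.775 and 0.805 against 24.3, 19.1 and 20.4 CPM. Tagged input held 2.52, 1.61 and 1.29 CPM and untagged input 1.26, 1.43 and 1.09 CPM. The enrichment of 3.99 (SE 0.48, edgeR adjusted p 1.85e-07) therefore rests on an mRNA that was scarce in the lysate and 11.9-fold over input on the beads. In experiment 2 Tgfbr2 stood at 2.22, 1.66 and 1.76 CPM in untagged IP and at 11.02, 9.23 and 10.3 CPM in tagged IP, an enrichment of 1.72 (SE 0.31, edgeR adjusted p 0.000104). All tagged IP libraries lay above all others of their experiment's untagged and input groups.

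The other type II receptors showed smaller values. Bmpr2, the BMP type II receptor, was enriched by 1.04 (SE 0.20, edgeR adjusted p 0.000116) and 0.60 (SE 0.16, edgeR adjusted p 0.00637), the second lost with library size alone. Acvr2b was enriched by 1.29 (SE 0.23, edgeR adjusted p 5.63e-05) and 0.44 (SE 0.15, edgeR adjusted p 0.0247). The second was lost with library size alone and in 5 of 12 fits that left out 1 library, namely untagged input replicate 2, tagged input replicates 2 and 3, untagged IP replicate 3 or tagged IP replicate 1, with values from 0.23 to 0.54 over all alternatives. Acvr2a, its paralog and partner for the same ligands, was the exception among the 10. It stood at 6.58, 11.4 and 10.5 CPM in untagged IP and at 13.0, 11.1 and 11.7 CPM in tagged IP of experiment 1, with overlapping groups, while tagged input was higher (12.6 to 17.3 CPM). Its change was -0.36 (SE 0.23, edgeR adjusted p 0.184) in experiment 1 and -0.15 (SE 0.17, edgeR adjusted p 0.552) in experiment 2. Without untagged IP replicate 1, the lowest library, the former reached -0.51 and was called.

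Both Smads were enriched. Smad2 stood at 51.9, 53.8 and 55.3 CPM in untagged IP and at 215, 194 and 219 CPM in tagged IP of experiment 1 (2.02, SE 0.15, edgeR adjusted p 5.05e-11). In experiment 2 it stood at 57.7, 60.7 and 58.2 against 137.5, 127 and 114 CPM (1.16, SE 0.10, edgeR adjusted p 2.69e-10), and the groups were far apart both times. Smad7 was already recovered without the tag in experiment 1, where untagged IP held 209, 231 and 190.3 CPM against 69.8, 74.5 and 71.0 CPM in input, 2.93-fold (log2 1.55, SE 0.09, edgeR adjusted p 5.49e-12). Tagged IP held 459, 411 and 482 CPM, so that the enrichment above untagged cells was 1.04 (SE 0.12, edgeR adjusted p 1.74e-07). In experiment 2 the untagged beads held Smad7 at 1.02-fold of input (86.4, 88.4 and 109.7 CPM in IP). Tagged IP libraries spread widely, at 484, 345 and 259 CPM, for an enrichment of 1.72 (SE 0.25, edgeR adjusted p 3e-06). The untagged IP libraries of the 2 experiments did not overlap for Smad7, while the tagged ones did.

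**Figure D2:**
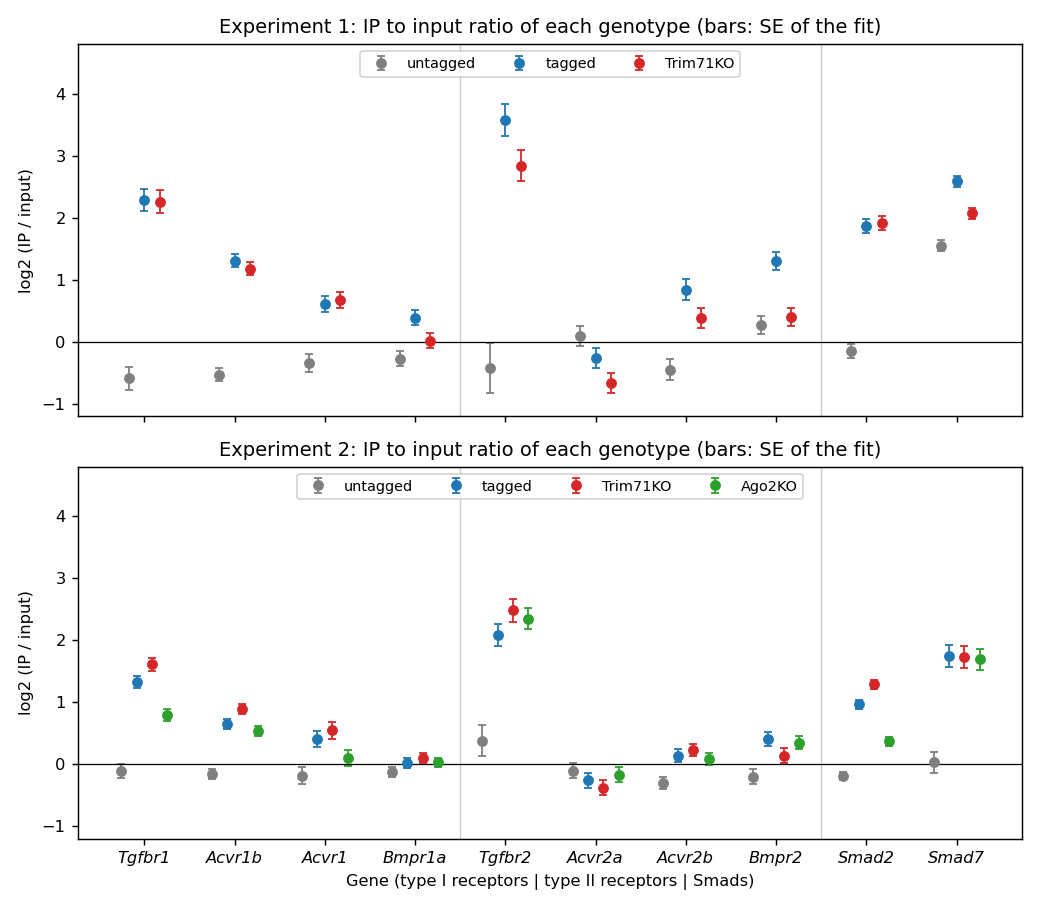
Log2 ratio of IP to input for each gene and genotype in experiment 1 (top) and experiment 2 (bottom), with the SE of the fit as bars, so that 0 means equal shares in IP and input. Untagged cells lie near or below 0 for most genes, except Smad7 at 1.55 in experiment 1, and tagged cells reach 3.57 for Tgfbr2 in experiment 1.

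The experiments differed in size of enrichment. In a fit over both, 6 of the 10 genes had a smaller tag-specific enrichment in experiment 2 and 0 a larger one, where 28.5% of 18620 genes were called, 17.3% as smaller. Tgfbr2 differed most. Acvr1 (-0.46, SE 0.26), Bmpr2 (-0.54, SE 0.27), Acvr2a (0.10, SE 0.28) and Smad7 (0.58, SE 0.30) were not called.

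**Figure D3:**
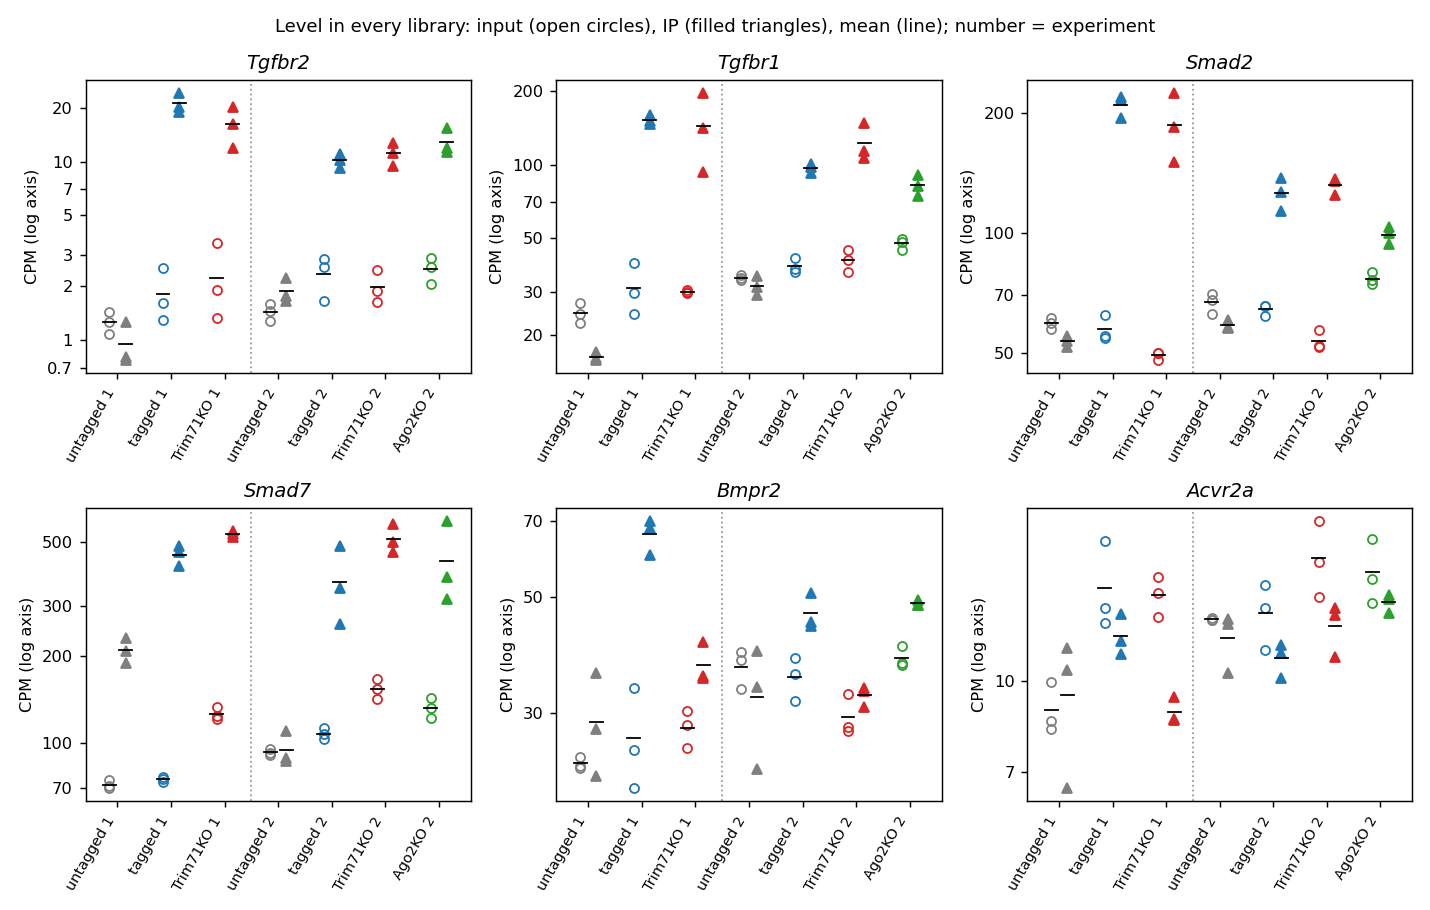
Level in CPM (log axis, a scale of its own per panel) of 6 of the genes in every library, with input as open circles, IP as filled triangles and group means as lines. IP stands 1.96-fold to 11.9-fold over input for Tgfbr2, Tgfbr1 and Smad2 in tagged cells and at 0.663-fold to 1.3-fold of input in untagged cells, while untagged cells of experiment 1 hold Smad7 at 2.93-fold.

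Dependence on Trim71 was read from the ratio in cells labelled Trim71KO against tagged cells. In experiment 1, 2 of the 10 genes fell, Bmpr2 and Smad7, where 3.74% of all genes were called, 3.47% as lower. Bmpr2 stood in tagged IP at 60.2, 68.1 and 70.0 CPM and in Trim71KO IP at 41.0, 35.4 and 35.0 CPM. Its input was 33.5, 21.5 and 25.4 CPM in tagged and 25.7, 28.4 and 30.2 CPM in Trim71KO cells. The IP libraries did not overlap and the input libraries did. The ratio of IP to input went from 2.47-fold to 1.32-fold, close to the 1.20-fold of untagged cells, a change of -0.91 (SE 0.20, edgeR adjusted p 0.00798). The call was lost without tagged input replicate 3, Trim71KO input replicate 3 or Trim71KO IP replicate 2, with values from -1.01 to -0.71 and adjusted p up to 0.0666.

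Smad7 reached its change in another way. Its IP level was higher in every Trim71KO library (543, 517 and 531 CPM) than in tagged cells, and its input rose further, from 75.1, 76.2 and 73.0 CPM to 121, 124 and 133 CPM. The ratio of IP to input went from 6.03-fold to 4.2-fold, against 2.93-fold in untagged cells, a change of -0.52 (SE 0.12, edgeR adjusted p 0.0143). This call was lost with library size alone and in 8 of 12 fits that left out 1 library, in which tagged input replicate 1 or 3, tagged IP replicate 3, Trim71KO IP replicate 2 or 3, or any Trim71KO input library was absent. Values ranged from -0.58 to -0.40 and adjusted p up to 0.171. Tgfbr2 (-0.73, SE 0.38, edgeR adjusted p 0.379), Acvr2b (-0.45, SE 0.23), Acvr2a (-0.39, SE 0.23) and Bmpr1a (-0.37, SE 0.17) were not called, nor were Acvr1b, Tgfbr1, Smad2 and Acvr1, between -0.13 and 0.07. Bmpr1a was called, at -0.51, without Trim71KO IP replicate 1.

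In experiment 2, 0 of the 10 genes were called by edgeR's test, 1 had an unadjusted p under 0.05 and DESeq2 called 0, where 1.49% of all genes were called. With the replicate number as a block, which pairs these libraries, calls over all genes went from 295 to 470 and 0 of the 10 were among them. Bmpr2 was again lower in Trim71KO IP, at 33.0, 30.8 and 33.4 against 44.8, 44.1 and 51.1 CPM, without overlap. Its input was also lower (27.7, 28.2 and 32.6 against 35.7, 31.7 and 38.3 CPM), and the ratio changed by -0.27 (SE 0.16, edgeR adjusted p 0.468). Smad7 changed by -0.02 (SE 0.24, edgeR adjusted p 0.982). Smad2 had the unadjusted p under 0.05, with 0.33 (SE 0.10, edgeR adjusted p 0.0923), and was called with library size alone or without tagged IP replicate 1. The change itself was not shown to differ between experiments. Of all genes 0.0967% were called there, each with a higher, that is less negative or more positive, value in experiment 2. For Bmpr2 the difference was 0.65 (SE 0.27, edgeR adjusted p 0.259), for Tgfbr2 1.13 (SE 0.48, edgeR adjusted p 0.27) and for Smad7 0.51 (SE 0.30, edgeR adjusted p 0.435). None of the 10 was called there by edgeR, 4 had an unadjusted p under 0.05 and DESeq2 called 0. The 10 values were all above 0, with a median of 0.42 against 0.09 over all genes.

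Dependence on Ago2 was measured in experiment 2 alone, against the same tagged libraries as the Trim71KO cells. Smad2 and Tgfbr1 fell and 0 of the 10 genes rose, where 4.16% of all genes were called, 3.77% as lower. Smad2 stood at 103.5, 99.98 and 93.7 CPM in Ago2KO IP, below each tagged IP library (137.5, 127 and 114 CPM). Input was at 74.4, 76.3 and 79.7 CPM in Ago2KO and 65.7, 61.8 and 65.5 CPM in tagged cells, also without overlap and in the opposite direction. The ratio of IP to input went from 1.96-fold to 1.29-fold, against 0.878-fold in untagged cells. This change of -0.60 (SE 0.10, edgeR adjusted p 0.000219) was called under every alternative and without any 1 library.

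Tgfbr1 showed the same pattern at smaller precision. Ago2KO IP held 90.7, 74.7 and 81.9 CPM against 98.1, 92.1 and 100.3 CPM in tagged cells, and input 49.7, 48.1 and 44.6 against 41.5, 37.5 and 36.2 CPM. Neither pair of groups overlapped. The ratio went from 2.52-fold to 1.74-fold, a change of -0.54 (SE 0.14, edgeR adjusted p 0.0243). It was lost with library size alone and without tagged input replicate 2 or 3, Ago2KO input replicate 1 or 2, or Ago2KO IP replicate 2, with values from -0.61 to -0.43. Tgfbr2, the other TGF-beta receptor, stood at 15.4, 11.4 and 11.9 CPM in Ago2KO IP, above each tagged IP library (11.02, 9.23 and 10.3 CPM), and its ratio of 5.09-fold against 4.27-fold was not called (0.25, SE 0.26, edgeR adjusted p 0.789). Acvr1 (-0.31, SE 0.19) was not called, and the remaining 6 genes lay between -0.11 and 0.09. Smad7 was among them, at 588, 376 and 316 CPM in Ago2KO IP and a change of -0.06 (SE 0.24).

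**Figure D4:**
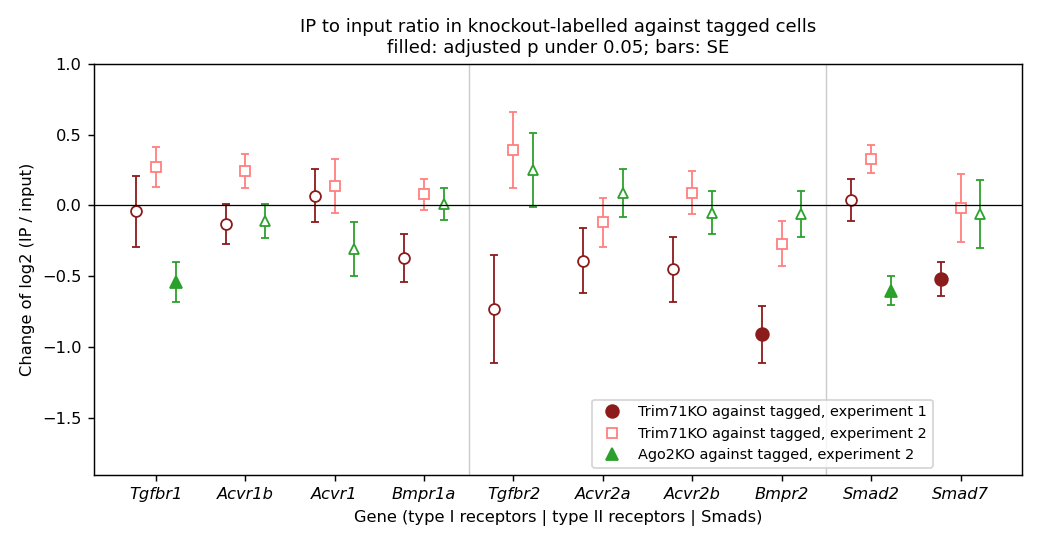
Change of the log2 IP to input ratio against tagged cells for each gene, in Trim71KO cells of experiment 1 (circles) and experiment 2 (squares) and in Ago2KO cells of experiment 2 (triangles), with SE bars and filled symbols at an adjusted p under 0.05. The filled values are Bmpr2 at -0.91 and Smad7 at -0.52 in Trim71KO cells of experiment 1, and Smad2 at -0.60 and Tgfbr1 at -0.54 in Ago2KO cells.

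Setting the knockouts against each other, Smad2 and Tgfbr1 were the genes of the 10 whose enrichment differed, where 11.8% of all genes were called, 8.94% as higher in Trim71KO cells. The comparison uses the same Ago2KO libraries as the one against tagged cells, so it is not independent of it. Smad2 IP levels were 125, 135 and 136 CPM in Trim71KO cells and its ratio 2.45-fold, against 1.29-fold in Ago2KO cells, a difference of 0.93 (SE 0.10, edgeR adjusted p 2.19e-07). Tgfbr1 IP levels were 106, 114 and 149 CPM in Trim71KO cells, for a difference of 0.81 (SE 0.14, edgeR adjusted p 0.000226). Both IP groups lay above the Ago2KO groups without overlap, and neither call was lost under any alternative or without any 1 library. Acvr1b missed the threshold at 0.35 (SE 0.12, edgeR adjusted p 0.0509). It passed with DESeq2, with the replicate number as a block, and without Trim71KO input replicate 3, Trim71KO IP replicate 1 or 2 or Ago2KO IP replicate 1. Over all alternatives, those in which it did not pass included, values ranged from 0.16 to 0.42. Bmpr2 (-0.21, SE 0.16) and Smad7 (0.04, SE 0.24), the genes that fell in Trim71KO cells of experiment 1, did not differ by this test.

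Input levels changed for some of the 10 genes. Between tagged and untagged cells of experiment 1, Acvr2a was higher (0.69, SE 0.15, edgeR adjusted p 0.00666) and Acvr2b lower (-0.53, SE 0.16, edgeR adjusted p 0.0407), where 10.6% of genes were called. The latter was lost without any 1 untagged input library or tagged input replicate 2 or 3 (-0.71 to -0.40). In experiment 2 the same comparison called 0 of the 10 with edgeR, where 1.39% of genes were called, DESeq2 called 0, and Tgfbr2 had the 1 unadjusted p under 0.05 (0.72, SE 0.23, edgeR adjusted p 0.15).

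In Trim71KO input, Smad7 was higher in both experiments. In experiment 1, 3 of the 10 genes rose, where 34% of genes were called, 16.5% as higher. These were Acvr2b from 17.1, 10.8 and 12.1 to 21.4, 24.8 and 25.5 CPM (0.85, SE 0.16, edgeR adjusted p 0.000318), Smad7 (0.76, SE 0.09, edgeR adjusted p 9.38e-07) and Acvr1b (0.44, SE 0.10, edgeR adjusted p 0.00142). The tagged reference held less Acvr2b than untagged input of that experiment, at a mean of 13.32 against 19.15 CPM. Acvr2b (0.01, SE 0.10) and Acvr1b (0, SE 0.08) were not called in experiment 2. In experiment 2, where 27.2% of genes were called, Smad7 rose from 113, 107 and 103 to 155, 166 and 142 CPM (0.52, SE 0.17, edgeR adjusted p 0.0263). This was called in 1 of 6 fits that left out 1 library, the one without Trim71KO input replicate 3. Acvr2a also rose (0.31, SE 0.12, edgeR adjusted p 0.0493). Its call was lost with library size alone, with only the compared groups in the fit, and without tagged input replicate 1 or 2 or Trim71KO input replicate 2 or 3 (0.19 to 0.41). Acvr1 fell from 12.7, 10.3 and 11.7 to 6.34, 7.49 and 9.25 CPM (-0.59, SE 0.14, edgeR adjusted p 0.00219), and Smad2 fell by 0.26 on the log2 scale (SE 0.07, edgeR adjusted p 0.00596). In Ago2KO input 1 of the 10 rose, where 6.96% of genes were called, 4.38% as higher. It was Smad2 (0.26, SE 0.07, edgeR adjusted p 0.0219), and the call was lost with library size alone and without any 1 of the 6 libraries compared (0.23 to 0.27).

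Markers of other cell types moved with these groups. Of the primitive endoderm markers, 6 of 7 fell in Trim71KO input of experiment 1, from a summed 57.8 to 71.6 CPM to 12.1 to 14.3 CPM. In experiment 2, 5 of 6 fell, from 20.5 to 22.4 CPM to 7.57 to 9.65 CPM, and in Ago2KO input 3 of 6, to 9.73 to 11 CPM. Primed epiblast and mesoderm markers summed to 37.2 to 40.9 CPM in tagged and 53.3 to 57.3 CPM in Trim71KO input of experiment 1, and to 61.3 to 62.2 and 111 to 132 CPM in experiment 2, with 67.2 to 70.4 CPM in Ago2KO input. Their members did not move as one. In Trim71KO input of experiment 2, Otx2 (1.22, SE 0.07) and Eomes (0.38, SE 0.11) rose, Pou3f1 fell (-0.80, SE 0.17), and the median of the 5 markers in the table was -0.56. The 2 fibroblast markers in the tables went from 22.6 to 24.5 to 58.0 to 61.8 CPM in experiment 1. In experiment 2 their sum went from 34.2 to 35.8 CPM to 49.5 to 51.9 CPM in Trim71KO input. There 1 of the 2 was called higher, and the median log2 change of the 2 was 0.14. The 2 trophectoderm markers summed to 81.1 to 93.9 CPM in tagged, 118 to 135 CPM in Ago2KO and 68.3 to 75.9 CPM in Trim71KO input of experiment 2, and moved in opposite directions. Tfap2c rose (0.58, SE 0.06) and Krt8 fell (-0.68, SE 0.17) in Ago2KO input, and Tfap2c fell (-0.45, SE 0.06) and Krt8 rose (0.72, SE 0.15) in Trim71KO input. The part of these shifts in the results above was not tested.

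The rest of the pathway was counted by role over a list of 75 genes, of which 62 were tested in experiment 1 and 65 in experiment 2. Tag-specific enrichment called 26 as higher and 12 as lower in experiment 1, where 28.1% and 28.8% of all genes were, and 19 and 3 in experiment 2, where 18.9% and 8.77% were. Of the 6 other Smads, 4 and 2 were higher, among them the BMP-regulated Smad5 (1.80, SE 0.15 and 1.13, SE 0.12) and the inhibitory Smad6 (1.97, SE 0.26 and 1.10, SE 0.24). Of the 17 intracellular regulators 11 and 10 were higher, with Pmepa1, an inhibitor that holds back receptor-regulated Smads, at 3.19 (SE 0.16) in experiment 1. Of 15 ligands tested, 4 and 3 were higher, shares near those of all genes. Gdf11, an activin-like ligand, reached 6.05 (SE 0.28) and 4.66 (SE 0.50), and Inhbb, the activin beta B subunit, 4.01 (SE 0.17) and 2.39 (SE 0.21). Junb, a response gene and transcription factor, reached 2.40 (SE 0.34) in experiment 2. Extracellular antagonists and ligand-binding proteins gave 2 higher and 4 lower of 10 in experiment 1, including Ltbp3 (-0.98, SE 0.21) and the BMP antagonist Chrd (-0.91, SE 0.25), and 2 higher and 1 lower of 11 in experiment 2.

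In the knockouts the counts of these pathway genes were near the shares over all genes, which were 3.47% lower in Trim71KO cells of experiment 1 and 3.77% lower in Ago2KO cells. In Trim71KO cells of experiment 1, 2 of 62 fell and 0 rose. Inhbb (-0.92, SE 0.16, edgeR adjusted p 0.000762) and Pmepa1 (-0.79, SE 0.15, edgeR adjusted p 0.00232) were the ones that fell. In experiment 2, 0 of 65 were called by edgeR's test and 7 had an unadjusted p under 0.05. In Ago2KO cells 3 of 65 fell and 1 rose. Smad5 fell by 0.65 on the log2 scale (SE 0.11, edgeR adjusted p 0.000632), and so did Skil (-0.57, SE 0.11) and Ski (-0.39, SE 0.09), both repressors of Smad-driven transcription, while the corepressor Tgif2 rose (0.39, SE 0.11). Smad5, Skil and Ski had higher ratios in Trim71KO than in Ago2KO cells (0.66, SE 0.12, 0.72, SE 0.11 and 0.63, SE 0.09), as Smad2 and Tgfbr1 did. That comparison shares its Ago2KO libraries with the one against tagged cells, so it is not a separate result.

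In Trim71KO input 21 of 62 pathway genes rose and 8 fell in experiment 1, where 16.5% of all genes rose and 17.4% fell. In experiment 2, 15 of 65 rose and 8 fell, where 13.5% and 13.7% of all genes did. Lefty1 and Lefty2, secreted Nodal antagonists that Nodal itself induces, rose by 1.72 (SE 0.20) and 1.62 (SE 0.17) in experiment 1 and by 2.71 (SE 0.19) and 2.40 (SE 0.13) in experiment 2. Tagged cells are the reference for these rises and for those in Ago2KO input. Lefty1 input was already lower in tagged than in untagged cells, at -0.83 (SE 0.21) in experiment 1 and -0.86 (SE 0.22) in experiment 2. Of the other receptors and co-receptors, 5 of 6 rose in experiment 1 and 2 of 6 in experiment 2, with Eng at 1.04 (SE 0.10) and 0.39 (SE 0.11). Response genes went both ways, 3 up and 3 down of 8 in experiment 1 and 3 up and 1 down of 10 in experiment 2. Id1, a BMP response gene, fell by 0.84 on the log2 scale in experiment 1 (SE 0.15), and Bmp7, a BMP ligand, fell by 1.52 in experiment 2 (SE 0.15), while Id4, of the same family as Id1, rose by 1.74 in experiment 2 (SE 0.18). Tgfbi, another response gene, rose most in experiment 1 (1.76, SE 0.11), where Fkbp1a (-0.56, SE 0.09) and Skil (-0.53, SE 0.10) fell. Ltbp3 (-1.05, SE 0.16) and Smad6 (-0.67, SE 0.19) fell in experiment 2. In Ago2KO input 7 of 65 rose and 3 fell, where 4.38% and 2.57% of all genes did, with Lefty1 at 1.43 (SE 0.20), Id4 at 0.80 (SE 0.20) and Id1 at -0.64 (SE 0.12). Tgfbi rose there as well (0.79, SE 0.12), and Pmepa1 (-0.38, SE 0.12) and Bmp4 (-0.34, SE 0.08) fell.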

How the data were processed

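RNA was sequenced from 42 libraries with a stranded total RNA kit, per the labels. The authors deposited, per the file headers, raw read counts and RPKM values per gene for each experiment. bcl2fastq 2.20, STAR 2.7.3a and the builds GRCm38 and mm10 are named in the submitters' processing notes, with no roles. Counting settings, strand and annotation are not given in the sources used here, so overlapping or antisense genes cannot be separated. The deposited RPKM values were not used. Levels per kilobase use the deposited gene length.

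The tests on counts used edgeR 4.0.16 and R 4.3.3 (TMM, filterByExpr, quasi-likelihood F test, a mean per group, all groups of an experiment in 1 fit, Benjamini-Hochberg over all genes tested). The filter left 18772 and 19778 genes. Experiments were compared in 1 fit of 42 libraries over 18620 genes. SE is the absolute log2 change over the square root of F. The 42 replicate pairs within groups differed by more than sampling noise. The fit was also run on counts simulated from its own estimates of spread, without pairing of replicates. Such counts cannot show a fault in those assumptions.

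Replicate numbers were taken to pair groups only where the lowest correlation between same-numbered libraries passed a bar. Between genotypes, this held for tagged and Trim71KO cells of experiment 2 alone, where deviations from group means correlated at 0.183 to 0.333 in IP and 0.206 to 0.299 in input. Tagged and Ago2KO IP libraries of experiment 2 correlated at 0.577, 0.066 and 0.416, so only the lowest kept them from counting as paired. With the replicate block, Ago2-dependent enrichment still called Smad2 and Tgfbr1. Within a genotype, IP and input of 1 number were paired by this rule in tagged cells of experiment 2 (0.104 to 0.183) and not in every pair of the others. Alternatives were RLE size factors, library size alone, no filter, DESeq2 1.42.0, only the groups compared, replicate blocks and leaving out each library.

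The genes and lists were chosen with earlier results of these data known. Named pathway genes were drawn from the called genes with the largest changes, up to 3 each way per comparison. A mean log2 CPM of at least 2 was required, and not every gene that met this rule is named. Smad5, Smad6, Eng, Ski and Skil were also named where their list was described, as were marker genes that moved with a result. Symbols of all 10 genes matched RefSeq (GRCm38.p6).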

Additional observations from a re-analysis of the deposited data

Results flagged for a closer look

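Tag-specific enrichment differed between the experiments for 6 of the 10 genes by the test of the difference itself (edgeR's quasi-likelihood test over both experiments, experiment 2 minus experiment 1). The difference was -2.38 for Tgfbr2 (SE 0.60, adjusted p 0.0027), -1.55 for Tgfbr1 (SE 0.31, adjusted p 0.000349), -1.15 for Acvr1b (SE 0.18, adjusted p 2.25e-05), -0.96 for Smad2 (SE 0.18, adjusted p 0.000149), -0.95 for Acvr2b (SE 0.28, adjusted p 0.0103) and -0.62 for Bmpr1a (SE 0.21, adjusted p 0.0215). Each was smaller in experiment 2, and the median over all genes was -0.05. For Tgfbr1 both sides moved. Its tagged ratio of IP to input was 4.90-fold in experiment 1 and 2.52-fold in experiment 2, and its untagged ratio 0.663-fold and 0.928-fold. For Bmpr1a the call was lost without tagged input replicate 3 of experiment 1 or tagged input replicate 1 of experiment 2, with values from -0.75 to -0.49 over all alternatives. Experiment and culture batch cannot be told apart.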

How the results depend on the processing

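Of 130 values, 10 genes in 13 comparisons, 39 were called. Of these 28 were called under every alternative and without any 1 library, 7 were lost in a setting and 10 when a library was left out. Of the 91 others 13 were gained in some alternative, and 0 called values changed sign. With library size alone the genes called went from 8 to 5 for tag-specific enrichment in experiment 2, from 2 to 1 for Trim71-dependent enrichment in experiment 1 and for Ago2-dependent enrichment, from 0 to 1 for Trim71-dependent enrichment in experiment 2, and from 1 to 0 for Ago2KO input. With only the groups compared, Ago2KO input went from 1 to 3 and tagged against untagged input of experiment 2 from 0 to 1. The replicate block took Ago2KO input from 1 to 2, adding Tgfbr1, where same-numbered input libraries correlated at 0.003 to 0.22 and so did not meet the bar for pairing, and changed none of the calls between tagged and Trim71KO cells of experiment 2. Over all genes, Trim71-dependent calls in experiment 2 went from 295 to 489 with library size alone, 548 with DESeq2, 470 and 522 with the 2 replicate blocks and 136 with only the groups compared. The calls on its difference between experiments went from 18 to 265 with DESeq2, 94 and 79 with the blocks and 4 with only the groups compared. With only the groups compared, input calls went from 275 to 497 for the tag in experiment 2 and from 1376 to 2481 for Ago2KO. The cause of these moves was not tested.

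Leaving out 1 library gave 0 to 3 calls for Trim71-dependent enrichment in experiment 1 and 0 to 1 in experiment 2, 1 to 2 for Ago2-dependent enrichment, 2 to 4 for Trim71KO against Ago2KO, 9 to 10 and 6 to 8 for tag-specific enrichment, 1 to 2 for tagged input in experiment 1, 2 to 3 for Trim71KO input in experiment 2 and 0 to 0 for Ago2KO input. The differences between experiments gave 5 to 7 for tag-specific and 0 to 1 for Trim71-dependent enrichment. Depth limits Tgfbr2 most, with 11 to 319 counts per library.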

Other observations

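For each gene, the genes whose group means followed it most closely were sought over the 8 groups of experiment 2 (Pearson r of mean log2 CPM, 12446 candidate genes, r of at least 0.9 over the 6 groups of experiment 1 as well). These are descriptions over groups that share cells, fraction and depth, with no test. Tgfbr2 was closest to Btg3 (0.997) and Slc39a6 (0.992). Tgfbr1 was closest to Slc41a1 and Slc35a5, both at r 0.998, and Acvr1b to Ing5 (0.998) and Rnf4 (0.995). Smad2 was closest to Prkab2 and L3mbtl3, both at 0.993, and Smad7 to Bcl6 (0.996) and Hes1 (0.993). Bmpr2 was closest to Vash2 (0.970) and Nrsn2 (0.965), Acvr1 to Rab6a (0.975) and Tmem28 (0.958), and Acvr2b to Ppp1r12b (0.977) and Celsr2 (0.90). The closest genes to Acvr2a were Bclaf3 (0.962) and Mppe1 (0.866), and to Bmpr1a Dcaf12 (0.896) and Cyb5d1 (0.866).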
